A study of Mus musculus with 14 samples.

Results

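Epidermal keratinocytes leave the basal layer, stop dividing and cornify under the control of a small group of transcription factors, and 10 of these genes are described here across mouse skin of 3 genotypes with and without imiquimod. They are Trp63, Klf4, Grhl1, Grhl3, Ovol1, Gata3, Hopx, Zfp750, Notch1 and Hes1, a list set by gene name with earlier results of these data known, and they are 10 of the 56953 genes in the count table. All 10 passed the filter on low counts that left 16027 genes for testing. Libraries were made from skin RNA with a kit that reads 1 tag close to the 3′ end of a transcript, so the tags do not separate transcripts that differ only at their start, such as the TA and ΔN forms of Trp63. Levels are CPM, the read count scaled to a fixed library size, after TMM scaling, which corrects for differences in the makeup of the libraries.

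Knockout animals were NEDD8fl/fl, K14-CreERT pos: both copies of Nedd8 carried loxP sites, and a tamoxifen-inducible Cre recombinase was expressed from the keratin 14 promoter, which is active in basal keratinocytes and the outer root sheath of hair follicles. Cre-negative animals were NEDD8fl/fl, K14-CreERT neg, with the same loxP sites and no recombinase, and wild-type animals were C57BL/6J. The imiquimod groups held 2 knockout, 2 Cre-negative and 2 wild-type libraries, and the DMSO groups held 3 knockout, 3 Cre-negative and 2 wild-type libraries. Imiquimod, an activator of Toll-like receptor 7 that gives mice a psoriasis-like dermatitis, was applied daily as a cream at 5% from day 0 to day 7, and knockout mice had been induced on 5 days before. No induction is given for the other genotypes, and no group received the cream without imiquimod. Backs or ears were treated, and the labels do not tell them apart by library. The design text of the series speaks instead of a NEDD8 inhibitor on wild-type skin, and the extraction text of cells rather than tissue. Neither the age of the animals nor whether libraries came from separate animals is stated, so p-values measure the spread between these libraries.

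NEDD8 is a ubiquitin-like protein whose attachment to cullins switches on cullin-RING ubiquitin ligases. In the epidermis, p63 keeps the basal layer in its proliferative, stratified state, Notch signalling drives commitment to the spinous layer, and KLF4, the grainyhead-like factors, OVOL1 and ZFP750 act in the later steps towards the barrier. GATA3 is best known for the inner root sheath of the hair follicle and the lipid barrier of the epidermis, and it is also the lineage factor of type 2 helper T cells and innate lymphoid cells. In a tissue sample, fewer cells of a type and less RNA per cell cannot be told apart.

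Gata3 and Grhl3 are shown by their promoters because imiquimod moved their levels in opposite directions in control skin. The sequences are the 250 bases before the start site from RefSeq on GRCm38.p6, both on the minus strand, at chr2:9878601-9878850 for Gata3 and chr4:135573633-135573882 for Grhl3. Capitals mark GGGCGG, the GC box bound by SP and KLF proteins, or its reverse complement CCGCCC on the printed strand.
Gata3: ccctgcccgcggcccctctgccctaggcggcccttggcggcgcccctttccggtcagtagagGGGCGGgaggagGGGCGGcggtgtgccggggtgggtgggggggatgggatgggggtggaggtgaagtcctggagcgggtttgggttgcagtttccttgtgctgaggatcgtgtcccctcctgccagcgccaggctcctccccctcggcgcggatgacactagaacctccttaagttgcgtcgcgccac
Grhl3: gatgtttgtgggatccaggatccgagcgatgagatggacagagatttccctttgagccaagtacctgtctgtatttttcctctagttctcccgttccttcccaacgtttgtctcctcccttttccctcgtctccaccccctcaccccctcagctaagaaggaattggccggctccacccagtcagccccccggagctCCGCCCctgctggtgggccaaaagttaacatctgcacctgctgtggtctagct

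The Gata3 window was 70% G and C and held the GC box 2 times, and the Grhl3 window was 56% G and C and held it 1 time. Promoter windows were matched for 6 of the 10 genes (Gata3, Grhl3, Grhl1, Klf4, Notch1 and Hopx, with 2 windows each for Grhl1 and Hopx). Both strands of all 8 windows were searched for 8 motifs. The GC box was found in windows of Gata3, Grhl3, Grhl1, Klf4 and Notch1, and it is held by 32.7% of all 32851 promoters. The other 7 motifs had no match in the 8 windows. The grainyhead-like motif AACCGGTT is held by 0.116% of all promoters. The letters AGATAA, bound by GATA factors, are held by 9.99%, and GTGGGAA, bound by RBPJ, the DNA-binding partner of Notch, by 5.42%. For CCACACCC, bound by Krüppel-like factors, the share is 3.2%, and for CCGTTA, bound by OVOL factors, it is 2.18%. The AP-1 motif TGANTCA is held by 6.75%, and TATAAA, the core of the TATA box, by 12.4%.

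Total counts ran from 5552954 to 34362477 per library, and the 18S ribosomal RNA entry Rn18s-rs5 took 3.84% to 19.1% of them, with the highest shares in Cre-negative imiquimod replicate 2 (19.1%) and knockout DMSO replicate 1 (17.5%). Xist and Y-linked reads marked all wild-type libraries and the knockout DMSO libraries as female, and both other imiquimod groups as male. Cre-negative DMSO replicates 1 and 2 were marked as male and replicate 3 as female. Sex thus differed in part between knockout and Cre-negative DMSO libraries, and it went with treatment among knockout libraries. Knockout and wild-type DMSO libraries were of the same sex, as were knockout and Cre-negative imiquimod libraries. Nedd8 had 308 and 151 CPM in the knockout imiquimod libraries, against 314 and 461 CPM in the Cre-negative imiquimod libraries. With DMSO it had 375, 158 and 147 CPM in knockout libraries, against 360, 290 and 291 CPM in Cre-negative libraries. With TMM scaling, replicate 1 of knockout DMSO skin therefore lay above all 3 Cre-negative DMSO libraries. Replicate 1 of knockout imiquimod skin lay just below the lower Cre-negative one. Scaled by total counts alone, knockout DMSO replicate 1 had 265 CPM, below the Cre-negative DMSO libraries (415, 343 and 368 CPM). Knockout imiquimod replicate 1 then had 308 CPM, between the Cre-negative imiquimod libraries (283 and 328 CPM). A lower level was not shown with DMSO (log2 fold change -0.47 ± 0.40, adjusted p = 0.403 by edgeR's quasi-likelihood test) or with imiquimod (-0.76 ± 0.50, adjusted p = 0.326). Whether the tag lies in the deleted part is not stated, and skin also holds cells without the recombinase. Results of the 10 genes that rest on replicate 1 of either knockout group are given with and without that library. Results of gene lists are so given where leaving 1 out moved a count by over 1.5 times or ended a call. This step was chosen after seeing the data.

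The 10 genes differed in how far their levels moved over the 6 groups. The ratio of the highest to the lowest group mean was 9.66 for Gata3, 5.73 for Ovol1, 5.10 for Klf4, 4.52 for Grhl3 and 4.08 for Grhl1. It was 3.84 for Hopx, 3.69 for Hes1, 3.17 for Notch1, 2.22 for Trp63 and 2.11 for Zfp750. Knockout imiquimod skin had the lowest group mean for 7 of the 10, namely Trp63, Klf4, Grhl1, Ovol1, Gata3, Zfp750 and Hes1. For Trp63, Grhl1, Zfp750 and Hes1 its libraries overlapped those of the next group. The share of all genes lowest in this group is not given here. Neighbouring groups in the order of means overlapped at all 5 steps for 7 of the genes. Ovol1 and Gata3 had overlap at 2 of the 5 steps and Klf4 at 4.

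**Figure D1:**
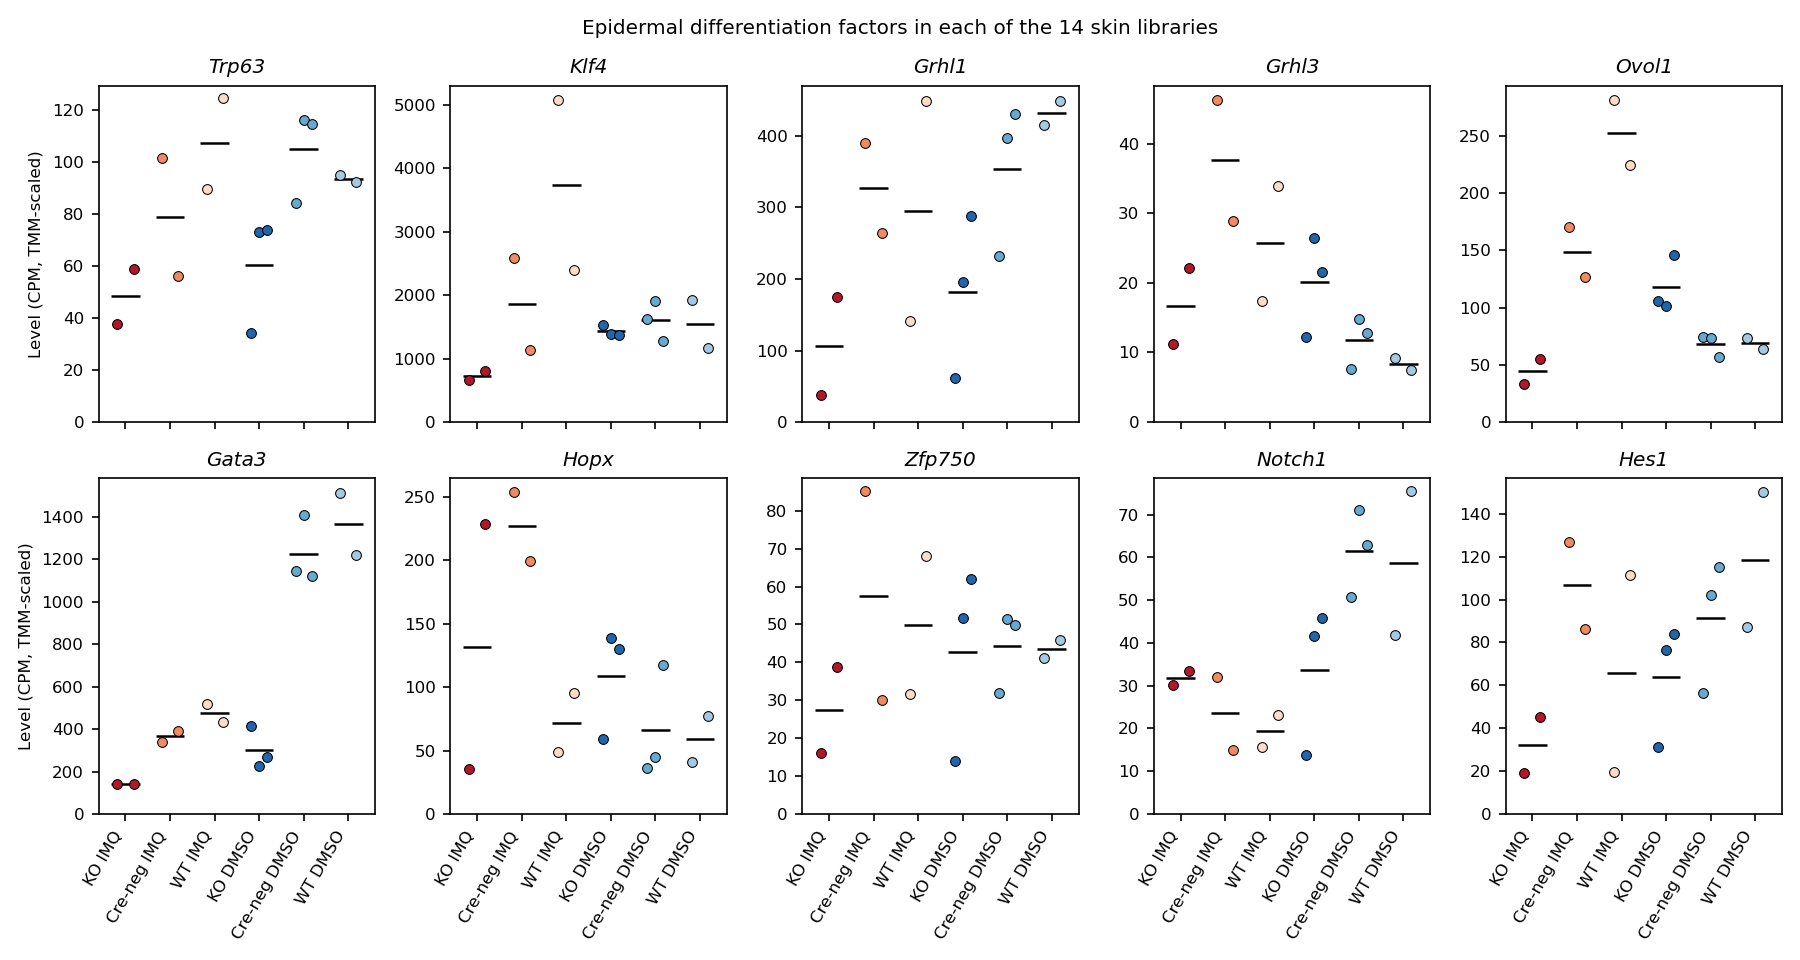
Levels in CPM (vertical axes, each from 0) of the 10 transcription factors in each library (points) of the 6 groups, with the group mean as a line. The 2 knockout imiquimod libraries had Gata3 at 144 and 139 CPM, below all other libraries.

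Trp63, which encodes p63 (ENSMUSG00000022510.15, chromosome 16, 25502513 to 25710852, plus strand, GRCm39 as for all genes here), had 37.8 and 58.7 CPM in knockout imiquimod libraries, 102 and 56.2 CPM in Cre-negative and 89.7 and 125 CPM in wild-type imiquimod libraries. In DMSO skin the levels were 34.4, 73.2 and 73.8 CPM in knockout libraries, 84.1, 116 and 115 CPM in Cre-negative and 95.01 and 92.03 CPM in wild-type libraries. The 3 knockout DMSO libraries lay below all 5 control DMSO libraries, and knockout and Cre-negative libraries overlapped with imiquimod. The log2 fold change of knockout against Cre-negative skin with DMSO was -0.79 ± 0.34, which did not pass (adjusted p = 0.0947), and with imiquimod it was -0.71 ± 0.41 (adjusted p = 0.268).

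Klf4, a Krüppel-like factor needed for the skin barrier (ENSMUSG00000003032.9, chromosome 4, 55527143 to 55532466, minus strand), had 668 and 796 CPM in knockout imiquimod libraries, 2577 and 1137 CPM in Cre-negative and 5072 and 2402 CPM in wild-type imiquimod libraries. With DMSO it had 1535, 1383 and 1376 CPM in knockout libraries, 1627, 1901 and 1270 CPM in Cre-negative and 1919 and 1163 CPM in wild-type libraries. Both knockout imiquimod libraries lay below the other 12, and the 3 DMSO groups overlapped.

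Grhl3 (ENSMUSG00000037188.8, chromosome 4, 135269199 to 135300941, minus strand) encodes a grainyhead-like factor of barrier formation and wound closure. It had 11.3 and 22.1 CPM in knockout imiquimod libraries, 46.3 and 28.9 CPM in Cre-negative and 17.4 and 34.0 CPM in wild-type imiquimod libraries. With DMSO the values were 12.2, 26.5 and 21.6 CPM in knockout libraries, 7.60, 14.8 and 12.8 CPM in Cre-negative and 9.13 and 7.52 CPM in wild-type libraries. Control skin was higher with imiquimod than with DMSO in every library, while the imiquimod and DMSO libraries of knockout skin overlapped. Its relative Grhl1 (ENSMUSG00000020656.17, chromosome 12, 24622282 to 24667390, plus strand), known for desmosomal cadherin genes and hair anchorage, averaged 106 ± 96.4 CPM in knockout, 327 ± 88.3 CPM in Cre-negative and 295 ± 218 CPM in wild-type imiquimod skin (SD, n = 2 each). With DMSO it averaged 182 ± 114 CPM in knockout (n = 3), 354 ± 106 CPM in Cre-negative (n = 3) and 432 ± 24.5 CPM in wild-type skin (n = 2). Its libraries overlapped at all steps of the order of groups.

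Ovol1, a zinc finger repressor that helps keratinocytes leave the cell cycle (ENSMUSG00000024922.3, chromosome 19, 5599164 to 5610674, minus strand), had 33.6 and 54.7 CPM in knockout imiquimod libraries, 170 and 126 CPM in Cre-negative and 281 and 225 CPM in wild-type imiquimod libraries. In the DMSO groups it had 106, 101 and 146 CPM in knockout libraries, 74.6, 73.5 and 57.1 CPM in Cre-negative and 73.7 and 63.7 CPM in wild-type libraries. The order of the groups therefore differed between treatments: knockout libraries were above all controls with DMSO and below all controls with imiquimod. Zfp750 (ENSMUSG00000039238.7, chromosome 11, 121401804 to 121410159, minus strand), whose human counterpart acts downstream of p63 in terminal differentiation, averaged between 27.3 ± 16.1 CPM in knockout imiquimod skin and 57.6 ± 38.8 CPM in Cre-negative imiquimod skin (n = 2 each), with overlap between all neighbouring groups.

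Gata3 (ENSMUSG00000015619.11, chromosome 2, 9861889 to 9883411, minus strand) had 144 and 139 CPM in knockout imiquimod libraries, 340 and 391 CPM in Cre-negative and 517 and 431 CPM in wild-type imiquimod libraries. With DMSO, Gata3 had 415, 227 and 269 CPM in knockout libraries, 1142, 1408 and 1122 CPM in Cre-negative and 1513 and 1220 CPM in wild-type libraries. All 5 control DMSO libraries lay above the other 9, and both knockout imiquimod libraries lay below the other 12. Knockout DMSO libraries overlapped with Cre-negative imiquimod libraries.

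Hopx (ENSMUSG00000059325.15, chromosome 5, 77234835 to 77262968, minus strand) encodes a homeodomain protein that does not bind DNA and marks hair follicle stem cells and suprabasal cells. It varied most between replicates, with 35.2 and 229 CPM in knockout imiquimod libraries, against 254 and 200 CPM in Cre-negative and 49.0 and 95.1 CPM in wild-type imiquimod libraries. With DMSO it averaged 109 ± 43.7 CPM in knockout (n = 3), 66.4 ± 44.6 CPM in Cre-negative (n = 3) and 59.0 ± 25.6 CPM in wild-type skin (n = 2). The coefficient of variation within a group reached 104% for Hopx in knockout imiquimod skin.

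Notch1, the main Notch receptor of the epidermis (ENSMUSG00000026923.16, chromosome 2, 26347915 to 26393834, minus strand), had 30.1 and 33.5 CPM in knockout imiquimod libraries, 32.1 and 14.9 CPM in Cre-negative and 15.7 and 23.1 CPM in wild-type imiquimod libraries. The DMSO levels were 13.8, 41.6 and 45.7 CPM in knockout libraries, 50.65, 70.97 and 62.95 CPM in Cre-negative and 41.9 and 75.4 CPM in wild-type libraries. Imiquimod libraries lay below DMSO libraries in both control genotypes and overlapped with them in knockout skin. Hes1 (ENSMUSG00000022528.9, chromosome 16, 29884158 to 29886614, plus strand), a repressor induced by Notch that preserves spinous cells, averaged 32.2 ± 18.4 CPM in knockout, 107 ± 28.8 CPM in Cre-negative and 65.6 ± 64.9 CPM in wild-type imiquimod skin (n = 2 each). With DMSO it averaged 63.8 ± 28.6 CPM in knockout (n = 3), 91.3 ± 31.1 CPM in Cre-negative (n = 3) and 119 ± 44.6 CPM in wild-type skin (n = 2).

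Replicate 1 was the lower of 2 libraries for 9 of the 10 genes in knockout imiquimod skin, replicate 2 for 9 in Cre-negative imiquimod skin and replicate 1 for 7 in wild-type imiquimod skin. With DMSO, replicate 1 was the lowest of 3 for 7 genes in knockout skin and for 7 in Cre-negative skin, and the 2 wild-type libraries were each lower for 5. Knockout DMSO replicate 1 and Cre-negative imiquimod replicate 2 are the libraries with the highest shares of 18S ribosomal RNA (17.5% and 19.1%), while knockout imiquimod replicate 1 had 9.13% and Cre-negative DMSO replicate 1 had 9.50%, and the part of that share in the levels was not tested. Over the 6 group means of log2 CPM, each centred on its own average, the closest pairs were Trp63 and Zfp750 (root mean square difference 0.25), Grhl1 and Hes1 (0.35) and Klf4 and Ovol1 (0.38), and the farthest was Grhl3 and Gata3 (1.64). The measure is not scaled to how far a gene moved. Zfp750 and Trp63 had the smallest spreads of the 10 around their average (root mean square 0.34 and 0.44). The group means share libraries and depth.

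Without imiquimod, the comparison of knockout and Cre-negative skin asked which of the 10 genes differ between these genotypes. An induction is given only for the knockout mice, and sex differed in part. The recombinase, the induction and, in part, sex cannot be told apart here. Gata3 fell to 304 ± 98.8 CPM in knockout skin, against 1224 ± 160 CPM in Cre-negative skin (n = 3 each, log2 fold change -2.01 ± 0.29, adjusted p = 0.000281 by edgeR's quasi-likelihood test, adjusted after Benjamini and Hochberg over 16027 genes), and all knockout libraries were below all Cre-negative ones. Ovol1 rose to 118 ± 24.5 CPM, against 68.4 ± 9.83 CPM (0.78 ± 0.27, adjusted p = 0.0437), with all knockout libraries higher. The 2 calls among 10 genes compare with 29.6% of all genes called. Libraries did not overlap for 4 of the 10 (Ovol1 higher and Trp63, Gata3 and Notch1 lower), against 48.3% of all genes. The remaining 8 genes lay between -0.95 ± 0.60 (Grhl1) and 0.79 ± 0.40 (Grhl3).

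The drop of Gata3 held with every library left out in turn (-2.30 to -1.84), and without knockout DMSO replicate 1 it was -2.30 (adjusted p = 0.000207). The call on Ovol1 held without that library (0.86, adjusted p = 0.0457) and ended when any of the other 5 libraries was left out, with values of 0.60 to 0.89. It also ended with library size alone as the scaling (0.44, adjusted p = 0.34), with no filter (0.78, adjusted p = 0.125), with the replicate number as a block (0.77, adjusted p = 0.0651) and with a term for sex (1.05, adjusted p = 0.143). Knockout against wild-type skin with DMSO shares the knockout libraries with this comparison. There Gata3 fell (-2.17 ± 0.31, adjusted p = 0.000346), the only call among the 10 against 25.6% of all genes. Libraries did not overlap for 6 of the 10 (Grhl3 and Ovol1 higher and Trp63, Grhl1, Gata3 and Hes1 lower), against 53.8% of all genes, while Grhl3 stood at 1.29 ± 0.46 (adjusted p = 0.0556) and Ovol1 at 0.78 ± 0.31 (adjusted p = 0.0806). Grhl3 passed there without knockout DMSO replicate 1 (1.53, adjusted p = 0.0263).

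Cre-negative against wild-type skin with DMSO compared the 2 control genotypes. The 10 genes lay between -0.38 ± 0.62 (Hes1) and 0.50 ± 0.45 (Grhl3), and their libraries overlapped for all 10, against 30.6% of all genes without overlap. By edgeR's quasi-likelihood test 0 of the 10 passed and 0.00% of all genes did. At an unadjusted p under 0.05 it was 0 of the 10 and 1120 of all genes, and DESeq2 called 0 of the 10 and 144 of all genes. The 95% interval of the log2 difference, a normal one that is narrower than the test implies, ran from -0.60 to 0.59 for Ovol1 and from -0.77 to 0.45 for Gata3.

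**Figure D2:**
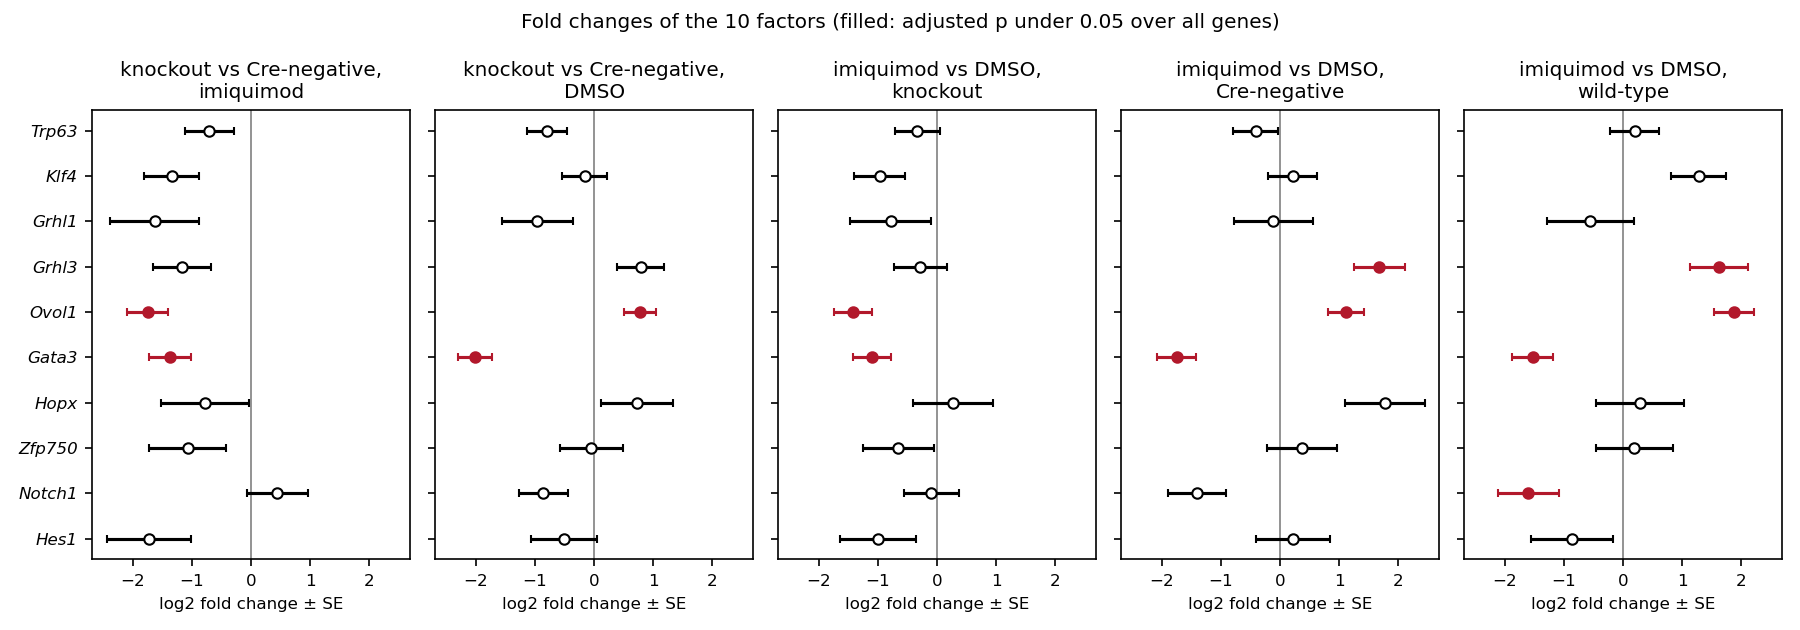
Log2 fold changes (points) with standard errors (bars) of the 10 transcription factors in 5 comparisons, with filled red points where the adjusted p was under 0.05. Gata3 lies left of 0 in each comparison of knockout with Cre-negative skin and of imiquimod with DMSO, and Ovol1 lies right of 0 with imiquimod in control skin and left of it in knockout skin.

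Knockout against Cre-negative skin with imiquimod asked how the genotypes differ in inflamed skin. Ovol1 fell to 44.2 ± 14.9 CPM in knockout skin, against 148 ± 30.9 CPM in Cre-negative skin (n = 2 each, -1.75 ± 0.34, adjusted p = 0.0044). Gata3 fell to 141 ± 3.03 CPM, against 365 ± 36.1 CPM (-1.37 ± 0.35, adjusted p = 0.0167). These 2 calls compare with 17.9% of all genes. All knockout libraries were below all Cre-negative ones for 6 of the 10 genes (Klf4, Grhl1, Grhl3, Ovol1, Gata3 and Hes1) and above them for 0, against 25.3% of all genes lower, 30.7% higher and 56.0% in either direction. The median log2 fold change of the 10 was -1.26, and that of all genes 0.02.

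Of the genes that did not pass, Klf4 stood at -1.34 ± 0.47 (adjusted p = 0.064), Grhl1 at -1.63 ± 0.75, Hes1 at -1.73 ± 0.71 and Grhl3 at -1.17 ± 0.49, while Notch1 stood at 0.44 ± 0.51. Without knockout imiquimod replicate 1, 0 of the 10 passed by edgeR's quasi-likelihood test (2 at an unadjusted p under 0.05), with Ovol1 at -1.44 (adjusted p = 0.069) and Gata3 at -1.39 (adjusted p = 0.109), and 796 of all genes were called, against 2866 with it. The call on Gata3 also ended without knockout imiquimod replicate 2 (-1.39), without Cre-negative imiquimod replicate 2 (-1.23) and with only the groups compared in the fit (-1.35, adjusted p = 0.0632). Grhl1 passed without knockout imiquimod replicate 2 (-3.14, adjusted p = 0.0389), as did Hopx (-2.72, adjusted p = 0.0444, against -0.78 with it), and Klf4 passed without Cre-negative imiquimod replicate 2 (-1.78, adjusted p = 0.0445).

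Imiquimod against DMSO within each genotype asked how skin responds to the inflammatory cream. In wild-type skin Ovol1 rose to 253 ± 40.1 CPM with imiquimod, against 68.7 ± 7.09 CPM with DMSO (n = 2 each, 1.88 ± 0.34, adjusted p = 0.00268), and Grhl3 rose to 25.7 ± 11.7 CPM, against 8.33 ± 1.14 CPM (1.62 ± 0.50, adjusted p = 0.0333). Gata3 fell to 474 ± 60.5 CPM, against 1367 ± 207 CPM (-1.53 ± 0.35, adjusted p = 0.00918), and Notch1 fell to 19.4 ± 5.24 CPM, against 58.7 ± 23.7 CPM (-1.60 ± 0.52, adjusted p = 0.0435). The 4 calls compare with 21.4% of all genes. Libraries did not overlap for 5 genes, the 4 above and Klf4 (1.28 ± 0.47, adjusted p = 0.0666), against 63.7% of all genes. The call on Ovol1 held with each library left out, that on Notch1 ended with any of the 4 left out (-1.88 to -1.11), and that on Grhl3 ended without wild-type imiquimod replicate 2 (1.16) or wild-type DMSO replicate 1 (1.85) or 2 (1.49). The call on Gata3 ended without wild-type imiquimod replicate 1 (-1.67) or 2 (-1.31) or wild-type DMSO replicate 1 (-1.27). With only the 4 libraries compared in the fit, the calls on Gata3 (adjusted p = 0.0664), Grhl3 (0.0608) and Notch1 (0.0538) ended, that on Grhl3 ended with library size alone (1.03), and that on Notch1 with the sex term (adjusted p = 0.0586). All 4 wild-type libraries were female, so the sex term says nothing of sex in this comparison. Klf4 passed without wild-type imiquimod replicate 2 (1.81, adjusted p = 0.0218), and Hes1 stood at -2.49 without that library (adjusted p = 0.035), against -0.86 ± 0.69 with it.

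In Cre-negative skin Grhl3 rose to 37.6 ± 12.4 CPM with imiquimod (n = 2), against 11.7 ± 3.71 CPM with DMSO (n = 3, 1.68 ± 0.43, adjusted p = 0.0177), and Ovol1 rose to 148 ± 30.9 CPM, against 68.4 ± 9.83 CPM (1.12 ± 0.30, adjusted p = 0.0206). Gata3 fell to 365 ± 36.1 CPM, against 1224 ± 160 CPM (-1.74 ± 0.33, adjusted p = 0.00328). These 3 calls compare with 18.2% of all genes, and libraries did not overlap for these 3, Hopx (1.77 ± 0.67, adjusted p = 0.0818) and Notch1 (-1.40 ± 0.49, adjusted p = 0.0629), against 54.3% of all genes. The call on Gata3 held with each library left out (-1.85 to -1.55). That on Grhl3 ended without Cre-negative imiquimod replicate 1 (1.39) or Cre-negative DMSO replicate 1 (1.44), and that on Ovol1 without Cre-negative imiquimod replicate 1 (0.98) or Cre-negative DMSO replicate 1 (1.18), 2 (1.17) or 3 (adjusted p = 0.0729). Hopx passed without Cre-negative DMSO replicate 3 (2.48, adjusted p = 0.0383). With library size alone Ovol1 stood at 0.57 and Grhl3 at 1.13, neither past the threshold, while that scaling moved the median of all genes by -0.57, and with the sex term Ovol1 stood at 1.001 (adjusted p = 0.0728).

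In knockout skin Ovol1 fell to 44.2 ± 14.9 CPM with imiquimod (n = 2), against 118 ± 24.5 CPM with DMSO (n = 3, -1.41 ± 0.32, adjusted p = 0.0116), and Gata3 fell to 141 ± 3.03 CPM, against 304 ± 98.8 CPM (-1.10 ± 0.32, adjusted p = 0.0433). The 2 calls compare with 11.1% of all genes, and libraries did not overlap for these 2 and Klf4 (-0.97 ± 0.43), against 41.4% of all genes. Without knockout imiquimod replicate 1 neither passed, with Ovol1 at -1.11 (adjusted p = 0.233) and Gata3 at -1.12 (adjusted p = 0.291). Without knockout DMSO replicate 1, Ovol1 was -1.44 (adjusted p = 0.017) and Gata3 -0.76 (adjusted p = 0.132). Knockout DMSO replicate 3 left out ended the call on Ovol1 (-1.23, adjusted p = 0.0517), and it or knockout imiquimod replicate 2 ended that on Gata3 (-1.18 and -1.08). All 3 knockout DMSO libraries were female and both knockout imiquimod libraries male, and with a sex term neither passed (Ovol1 at -1.79, adjusted p = 0.164, and Gata3 at -1.29, adjusted p = 0.405). Neither passed with library size alone (-1.22 and -0.85) or with only the groups compared (-1.35 and -1.06), and Gata3 did not pass in 5 further settings, with adjusted p between 0.0546 and 0.103. Grhl3 stood at -0.28 ± 0.44 and Notch1 at -0.10 ± 0.47.

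Whether knockout skin responded to imiquimod otherwise than Cre-negative skin was tested as an interaction. It passed for Ovol1 (-2.53 ± 0.44, adjusted p = 0.00239) and Grhl3 (-1.96 ± 0.63, adjusted p = 0.0386), so that imiquimod skin of the knockouts had less of both relative to DMSO than Cre-negative skin did. The 2 calls compare with 23.6% of all genes. The difference for Ovol1 held with each of the 10 libraries left out (-2.95 to -2.22), including knockout imiquimod replicate 1 (-2.22, adjusted p = 0.0233) and knockout DMSO replicate 1 (-2.59, adjusted p = 0.00277), and with library size alone (-1.79). That for Grhl3 was -2.18 without knockout DMSO replicate 1 (adjusted p = 0.0195) and ended without replicate 1 of knockout imiquimod (-1.55), of Cre-negative imiquimod (-1.63) or of Cre-negative DMSO (-1.72), without Cre-negative DMSO replicate 3 (-2.02), and without knockout DMSO replicate 2 (-1.72) or 3 (-1.91). It also ended with the sex term (-1.83, adjusted p = 0.158) and with library size alone (-1.26, adjusted p = 0.28). Among knockout libraries sex went with treatment. Only Cre-negative DMSO skin held both sexes, so the sex term rests on its 1 female and 2 male libraries. For Gata3, which fell in both genotypes, the difference was 0.64 ± 0.44 with a 95% interval from -0.23 to 1.51 (adjusted p = 0.302), and it passed with library size alone (1.48, adjusted p = 0.00953). Hopx stood at -1.50 ± 0.96 and at -3.42 without knockout imiquimod replicate 2 (adjusted p = 0.0241). The median over the 10 genes was -1.10, and that of all genes 0.11.

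**Figure D3:**
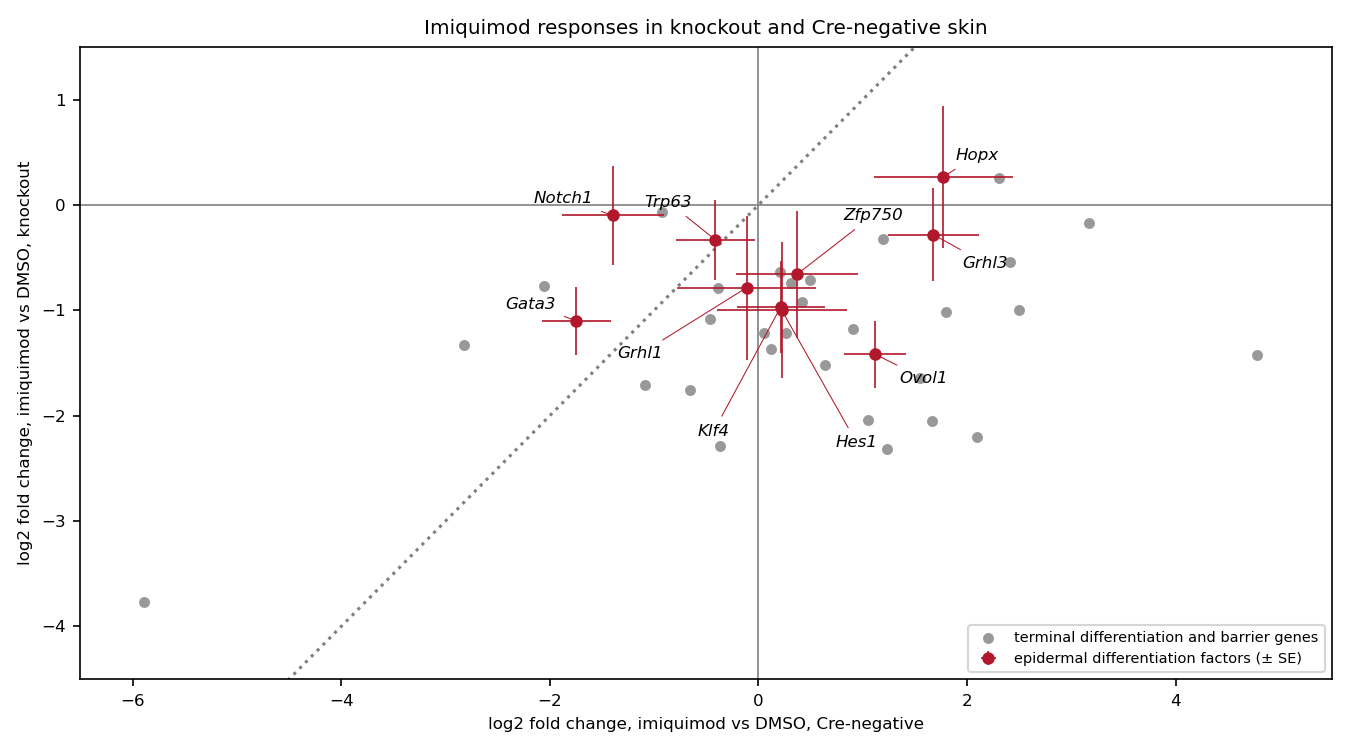
Log2 fold change of imiquimod against DMSO in knockout skin (vertical axis) and in Cre-negative skin (horizontal axis) for the 10 transcription factors (red, bars are standard errors) and the 30 terminal differentiation and barrier genes (grey), with a dotted line where both are equal. Ovol1 lies at 1.12 in Cre-negative skin and -1.41 in knockout skin, and Gata3 is negative on both axes.

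The other genes of the Notch pathway give the setting of Notch1 and Hes1. Counts of called genes in this and the following lists, markers included, compare with the shares of all genes called. Those were 29.6% in knockout against Cre-negative DMSO skin and 17.9% with imiquimod. For imiquimod against DMSO they were 21.4% in wild-type, 18.2% in Cre-negative and 11.1% in knockout skin, and 23.6% for the difference. Against wild-type DMSO skin they were 25.6% for knockout and 0.00% for Cre-negative skin. Of 7 tested ligands and receptors besides Notch1, 0 passed by edgeR's quasi-likelihood test in each of the 8 comparisons, and DESeq2 also called 0. At an unadjusted p under 0.05 it was 1 in knockout against Cre-negative imiquimod skin, 2 with imiquimod against DMSO in knockout skin and 0 in the other 6 comparisons. Of 14 genes of the Notch transcription complex and its modifiers, 1 fell in knockout against Cre-negative DMSO skin, Rbpj (-1.02 ± 0.27, adjusted p = 0.0138), the DNA-binding partner of Notch, and 1 rose with imiquimod in knockout skin, again Rbpj (1.26 ± 0.30, adjusted p = 0.0157). Its difference between responses was 1.96 ± 0.43 (adjusted p = 0.00746). Without knockout imiquimod replicate 1 neither call on its response held (0.81 in knockout skin, adjusted p = 0.336, and 1.51 for the difference, adjusted p = 0.0597). In wild-type skin with imiquimod, Adam17, a sheddase that can cleave Notch, rose (1.23 ± 0.35), and Lfng, a glycosyltransferase of Notch, and Maml2, a coactivator, fell (-1.47 ± 0.42 and -1.77 ± 0.57).

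Nrarp, a feedback inhibitor induced by Notch, had 138 ± 21.2 CPM in knockout and 302 ± 23.7 CPM in Cre-negative imiquimod skin (n = 2 each, -1.12 ± 0.34, adjusted p = 0.0381), and 362 ± 128 CPM in knockout and 138 ± 12.1 CPM in Cre-negative DMSO skin (n = 3 each, 1.39 ± 0.28, adjusted p = 0.00279). It rose with imiquimod in wild-type (1.69 ± 0.35) and Cre-negative skin (1.13 ± 0.31) and fell in knockout skin (-1.39 ± 0.33), with a difference between responses of -2.52 ± 0.45 (adjusted p = 0.00273). These directions are those of Ovol1 in the same libraries. Hey1, another Notch target, was higher in knockout than in Cre-negative imiquimod skin (3.30 ± 0.83, adjusted p = 0.0155) at 1.74 ± 1.09 CPM against 0.135 ± 0.190 CPM. Of the 4 tested targets beside Hes1, 1 rose and 1 fell in that comparison. When knockout imiquimod replicate 1 was left out, the calls on Hey1 (2.46, adjusted p = 0.167) and Nrarp (-0.98, adjusted p = 0.248) in it ended, as did that on Nrarp with imiquimod in knockout skin (-1.24), and the Nrarp difference passed (-2.36, adjusted p = 0.0264).

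Among 11 tested paralogs of the 10 genes, 2 fell and 0 rose in knockout against Cre-negative DMSO skin, where 29.6% of all genes were called. Gata6, a GATA factor of the upper hair follicle duct and sebaceous gland, fell (-4.93 ± 0.59, adjusted p = 7.14e-05), and so did Klf2, a Krüppel-like factor of endothelium and lymphocytes (-1.36 ± 0.41). With imiquimod Klf2 rose in knockout against Cre-negative skin (2.89 ± 0.53) and Gata6 fell (-4.10 ± 0.83). Klf2 rose with imiquimod in knockout skin (3.10 ± 0.46), where the difference between responses was 4.25 ± 0.67 (adjusted p = 0.00156). The calls on Klf2 that use knockout imiquimod skin held without its replicate 1, while that on Gata6 ended (-3.44, adjusted p = 0.0767). Without knockout DMSO replicate 1 the lower Klf2 in DMSO skin did not pass (-1.21, adjusted p = 0.07).

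Of 18 other keratinocyte transcription factors, 1 rose and 4 fell in knockout against Cre-negative DMSO skin, where 29.6% of all genes were called. Their median was -0.21. Elf3, an epithelial ETS factor, rose (1.61 ± 0.47), and Maf (-1.69 ± 0.28), Rora (-2.29 ± 0.48) and Pou2f3 (-2.63 ± 0.78) were among those that fell. With imiquimod 0 rose and 5 fell, among them Cebpa (-1.45 ± 0.38), Barx2 (-2.63 ± 0.73) and Tfap2a (-1.36 ± 0.42), with a median of -1.04. Elf3 and its relative Ehf rose with imiquimod in wild-type (4.63 ± 0.67 and 3.43 ± 0.64) and Cre-negative skin (2.21 ± 0.51 and 1.79 ± 0.53). Their differences between responses were -3.09 ± 0.74 and -2.75 ± 0.77, in the direction of those of Ovol1 and Grhl3. Without knockout imiquimod replicate 1, 0 of the 18 passed by edgeR's quasi-likelihood test in knockout against Cre-negative imiquimod skin (4 lower at an unadjusted p under 0.05) or for the difference (3 lower), with Elf3 at -2.51 and Ehf at -2.29 for the difference.

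Of 13 basal keratinocyte genes known as p63 targets, 7 rose and 2 fell in knockout against Cre-negative DMSO skin, where 29.6% of all genes were called. Their median was 1.26 against -0.06 for all genes, while Trp63 itself did not pass (-0.79 ± 0.34). Krt14, the basal keratin, rose (2.65 ± 0.37), as did Itga3, an integrin chain (2.58 ± 0.49), and Lama3, a laminin chain of the basement membrane (2.40 ± 0.46). With imiquimod 5 rose and 1 fell between the same genotypes, among them Lamb3, another laminin chain (2.58 ± 0.46), with Trp63 at -0.71 ± 0.41, and without knockout imiquimod replicate 1 it was 3 and 0, with Lamb3 at 2.61.

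The 30 terminal differentiation and barrier genes lie downstream in the same programme. Between knockout and Cre-negative DMSO skin 6 rose and 9 fell, with a median of -0.39, and 29.6% of all genes were called. Krt10, the keratin of spinous cells, stood at -7.53 ± 0.92 and Flg2, a filaggrin relative, at -6.34 ± 0.66, both past the threshold, while Cers3, a ceramide synthase of the barrier, rose (2.36 ± 0.31). With imiquimod 0 rose and 17 fell, with a median of -2.13, among them Klk5 (-3.50 ± 0.35), Casp14 (-4.42 ± 0.50) and Tgm5 (-4.22 ± 0.50). With imiquimod against DMSO, 15 rose and 1 fell in wild-type skin (median 1.41), 10 rose and 2 fell in Cre-negative skin (median 0.45), and 0 rose and 8 fell in knockout skin (median -1.20), against medians of all genes of -0.09, -0.06 and -0.04 in wild-type, Cre-negative and knockout skin. The difference between responses passed for 11 of the 30, all negative, with Casp14 at -3.72 ± 0.58, Rptn at -6.20 ± 0.98 and Cers3 at -2.96 ± 0.47. This is the sign of the differences for Ovol1 and Grhl3, and the comparisons share their DMSO libraries. Without knockout imiquimod replicate 1, 6 of the 30 fell in knockout against Cre-negative imiquimod skin, 7 passed for the difference, and with imiquimod in knockout skin 0 passed by edgeR's quasi-likelihood test (8 lower at an unadjusted p under 0.05).

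Markers of keratinocytes were summed and tested in the same libraries. Of 9 identity markers, 2 rose and 0 fell in knockout against Cre-negative DMSO skin, Krt14 (2.65) and Sfn (3.52), an epithelial 14-3-3 protein. With imiquimod 0 rose and 1 fell, Ly6d (-1.34, adjusted p = 0.0477), and that call ended without knockout imiquimod replicate 1. The summed level of the 9 markers ran from 11230 to 18415 CPM in knockout, 22000 to 27318 CPM in Cre-negative and 28878 to 64061 CPM in wild-type imiquimod libraries. With DMSO it ran from 29296 to 47814 CPM in knockout, 10564 to 14509 CPM in Cre-negative and 8377 to 10171 CPM in wild-type libraries. Without Krt5 and Krt14, a choice made after seeing the data, the 7 others ran from 6033 to 9681 CPM in knockout and 11532 to 14345 CPM in Cre-negative imiquimod libraries, and from 15277 to 29319 CPM in knockout and 7623 to 10266 CPM in Cre-negative DMSO libraries. The sum thus lay on the same side as Ovol1 in both comparisons of knockout with Cre-negative skin, and on the other side from Gata3 with DMSO. With imiquimod, 5 of the 9 rose in wild-type skin (median 1.41) and 2 in Cre-negative skin (0.23), and 2 fell in knockout skin (-1.10). The difference between responses passed for 4, all negative (median -1.29), the sign of that for Ovol1. Without knockout imiquimod replicate 1 fewer passed in the last 2, with medians of -0.72 and -0.91. Without knockout DMSO replicate 1, 0 passed in knockout skin by edgeR's quasi-likelihood test (6 lower at an unadjusted p under 0.05). Of the 9 markers, 0 were at 0 in any library, and their part in the results was not tested.

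Gata3 is also expressed outside keratinocytes. Of 12 T cell and innate lymphoid markers 9 could be tested, and 5 fell and 0 rose in knockout against Cre-negative DMSO skin, with a sum of 31.9 to 40.2 CPM in knockout and 60.2 to 91.8 CPM in Cre-negative libraries. With imiquimod 2 rose and 1 fell (1 and 1 without knockout imiquimod replicate 1), and the sum was 86.1 to 350 CPM in knockout (350 in replicate 1), against 33.7 to 64.1 CPM in Cre-negative libraries. Trac was at 0 in all libraries of 5 of the 6 groups, the exception being Cre-negative DMSO skin, and Cd8a in all libraries of 4. Markers of the inner root sheath summed to 47.9 and 64.6 CPM in knockout, 41.9 and 9.15 CPM in Cre-negative and 836 and 37.4 CPM in wild-type imiquimod libraries. With DMSO they summed to 84.3, 68.9 and 105 CPM in knockout, 110, 28.3 and 17.3 CPM in Cre-negative and 96.5 and 5820 CPM in wild-type libraries. Tchh, trichohyalin, which is also made in the medulla and in some epithelia outside the hair, made up most of the knockout DMSO sums (85.6 ± 18.2 CPM in knockout and 27.9 ± 18.6 CPM in Cre-negative DMSO skin). The other 6 tested markers, all keratins of the sheath, averaged 0.0094 to 0.198 CPM in knockout, 0.297 to 10.8 CPM in Cre-negative and 34.9 to 994 CPM in wild-type DMSO skin.

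Of 7 tested sheath markers, 2 fell and 0 rose in knockout against Cre-negative DMSO skin, Krt28 (adjusted p = 0.0311) and Krt25 (adjusted p = 0.0499), both calls ending without knockout DMSO replicate 1. Against wild-type DMSO skin 7 fell, and 2 did so without wild-type DMSO replicate 2, the library with a sum of 5820 CPM. In these 2 comparisons of DMSO skin the sheath keratins were lower where Gata3 was lower. Elsewhere 0 of the 7 were called. Their median was -6.23 in Cre-negative against wild-type DMSO skin, with Gata3 at -0.16. In knockout against Cre-negative imiquimod skin it was 0.67, with Gata3 at -1.37. With imiquimod it was 3.00 in knockout, -2.37 in Cre-negative and -3.25 in wild-type skin, and Gata3 fell in each. Without wild-type DMSO replicate 2 the -6.23 became -0.46 and the -3.25 became 2.18. Gata3 had 1513 CPM in wild-type DMSO replicate 1, with a sheath sum of 96.5 CPM, and 1220 CPM in replicate 2. The part of sheath cells in the levels of Gata3 was not tested.

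Other markers differed too. Myeloid markers summed to 833 to 1790 CPM in knockout, against 217 to 433 CPM in Cre-negative imiquimod libraries, where 6 of 9 rose, and endothelial markers to 202 to 424 CPM, against 41.2 to 49.4 CPM, where 8 of 10 rose. Of 8 fibroblast markers 1 rose and 0 fell in that comparison (1608 to 1985 CPM in knockout, against 680 to 1628 CPM in Cre-negative libraries). Skeletal muscle markers summed to 1569 to 2684 CPM in knockout, against 6816 to 18933 CPM in Cre-negative DMSO libraries, where 7 of 8 fell, and adipocyte markers to 89.7 to 153 CPM, against 152 to 393 CPM, where 4 of 7 fell. Wild-type DMSO libraries had 754 to 1295 CPM of the adipocyte markers. Leaving out knockout imiquimod replicate 1 brought the myeloid and endothelial markers that rose to 3 and 2 and ended the call on the fibroblast marker. Between knockout and Cre-negative DMSO libraries, endothelial markers summed to 85.0 to 193 CPM, against 56.8 to 67.4 CPM, where 4 of 10 rose. Fibroblast markers there summed to 901 to 1251 CPM, against 2357 to 2484 CPM, where 1 rose and 2 fell. The part of these cells in the levels of the 10 genes was not tested.

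**Figure D4:**
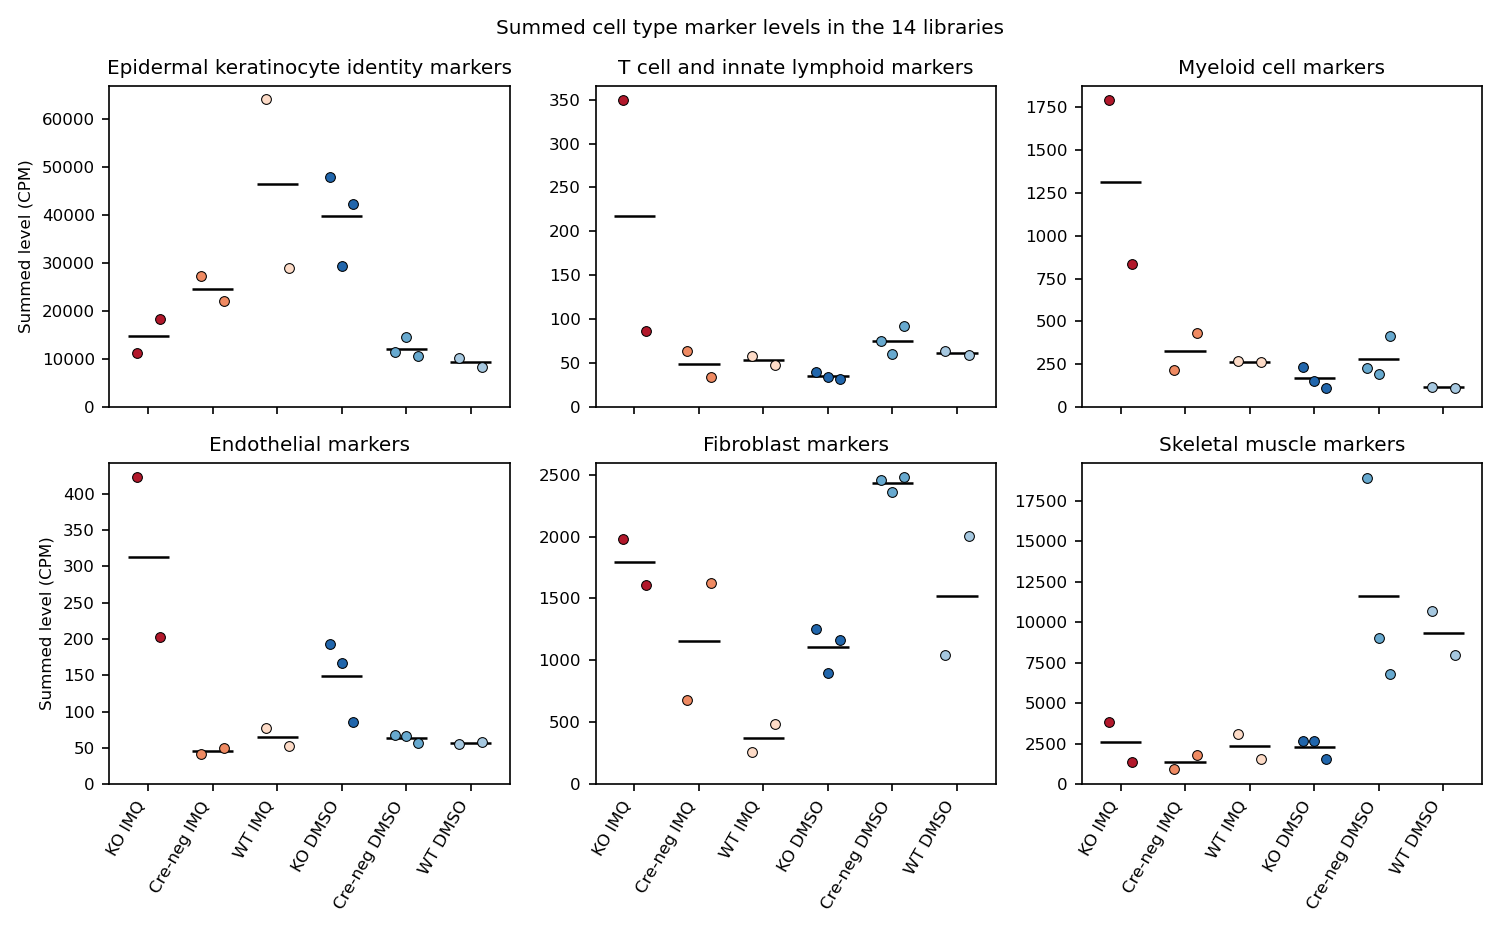
Summed CPM of marker genes (vertical axes, each from 0) for each library (points) in the 6 groups, with the group mean as a line, for 6 cell types. Keratinocyte sums of knockout skin lie above Cre-negative skin with DMSO (29296 to 47814 against 10564 to 14509 CPM) and below it with imiquimod.

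The genes whose 6 group means were most like those of each member were found among 9698 genes averaging at least 5 CPM. For Gata3 these were Paqr8 (root mean square log2 difference 0.15) and Axin2 (0.17), for Ovol1 Tyro3 (0.11) and Clybl (0.15), and for Grhl3 Plcd1 (0.13) and Bbln (0.15). Klf4 was closest to Lcmt1 (0.10) and Hadha (0.14), Grhl1 to Me1 (0.10) and Adgrg6 (0.14), and Trp63 to Nub1 (0.08) and Iqsec2 (0.09). Zfp750 was closest to Lrba (0.06) and Ift20 (0.07), Hopx to Rab1a (0.19) and Fam136a (0.19), Notch1 to Bmp2 (0.10) and Apobec2 (0.13), and Hes1 to Ndufb11 (0.08) and Rpl30 (0.13). Zfp750, with the smallest of these differences, also had the smallest spread of its 6 group means (root mean square 0.34 around their average), and Gata3 had a spread of 1.14.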

How the data were processed

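Skin RNA of 14 mouse libraries in 6 groups was measured. The authors deposited 1 table of raw read counts per gene with GRCm39 coordinates, per the file header, and a Length column that was not used. STAR, featureCounts, DESeq2 and the builds GRCm38 and GRCm39 are named in the submitters' processing notes, which do not tie a build to a step. How strand and multiply matching reads were treated is not given in these sources, and the counts of genes that overlap or have near copies are uncertain for that reason. Groups were taken from the labels.

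Counts were fitted with edgeR 4.0.16 (R 4.3.3, limma 3.58.1) in 1 model with a mean per group, after filterByExpr and TMM scaling. Differences were tested with edgeR's quasi-likelihood test on 16027 genes, with Benjamini-Hochberg adjustment and a threshold of 0.05. Standard errors are the log2 fold change divided by the root of F, and 95% intervals are normal. These intervals are narrower than the test implies. That of the Klf4 difference between responses ended at -0.0093, while its unadjusted p by edgeR's quasi-likelihood test was 0.069. The 8 comparisons share libraries. The scripts were tested on simulated data.

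The 10 genes and the 15 gene lists (7 of pathways and 8 of cell markers, 162 of 172 members tested) were chosen with earlier results of these data known. Named from each list were up to 4 genes with the smallest p of a comparison, Nedd8 as the target, and the 2 genes most like each of the 10. 1 gene that this rule names is not reported here. Total counts of 5552954 to 34362477 set the counting error, and with 2 or 3 libraries a group the spread between libraries limits the precision. Alternatives were DESeq2 1.42.0, other scalings and filters, only the groups compared, a replicate block, a sex term, and libraries left out. Same-numbered knockout and Cre-negative DMSO libraries deviated together in all 3 pairs (correlations of 0.26, 0.10 and 0.17), a pairing read from the data and not from the labels, so the block is given there beside the result it changes. Promoters are from RefSeq, and their motifs were chosen after the levels were seen.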

Additional observations from a re-analysis of the deposited data

Results flagged for a closer look

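The response to imiquimod differed between knockout and Cre-negative skin for 2 of the 10 genes, tested as the interaction of genotype and treatment over all 16027 genes. For Ovol1 the difference was -2.53 on the log2 scale, with a response of -1.41 in knockout and 1.12 in Cre-negative skin. For Grhl3 it was -1.96, with -0.28 in knockout and 1.68 in Cre-negative skin. The Ovol1 difference passed in every setting tried, while that of Grhl3 ended in 6 of the 10 fits that each left out 1 library, with the sex term and with library size alone. Sex went with treatment among knockout libraries, and only Cre-negative DMSO skin held both sexes, with 1 female library. The sex term rests on that group and cannot separate sex from the response in knockout skin. Groups of 2 or 3 libraries are too small for a check of single outlying libraries.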

How the results depend on the processing

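Of 16 results past the threshold among the 10 genes, 0 reversed under the 9 other settings or the 14 fits that each left out 1 library, and 5 passed in all of them: Gata3 in knockout against Cre-negative and against wild-type DMSO skin, Gata3 with imiquimod in Cre-negative skin, Ovol1 with imiquimod in wild-type skin, and the Ovol1 difference between responses. Of the 64 results that did not pass, 28 reversed in some setting and 13 passed in some. Where a value moved, the cause was not tested.

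Numbers of the 10 genes past the threshold moved as follows. In knockout against Cre-negative DMSO skin it was 1 with library size alone, no filter, the replicate block and the sex term. In knockout against Cre-negative imiquimod skin it was 5 with no filter and 4 with the block. For imiquimod in wild-type skin it was 1 with only the groups compared, and in Cre-negative skin 5 with DESeq2, no filter and only the groups compared. For imiquimod in knockout skin it was 0 with library size alone, only the groups compared and the sex term, and 1 with median-of-ratios scaling, either other filter, the block, and without the 2 libraries highest in 18S RNA. For the difference between responses it was 1 with the sex term. In knockout against wild-type skin it was 3 with DESeq2 and no filter, and 2 with median-of-ratios scaling, the block and without those 2 libraries. Over all genes, the count for Cre-negative against wild-type skin was 144 with DESeq2, 446 with no filter, 18 with only the groups compared, 3 with the block and 1 without those 2 libraries. With the sex term it was 1448 for knockout against Cre-negative DMSO skin, 210 for imiquimod in knockout skin and 1469 for the difference. With only the groups compared it was 1863 for imiquimod in wild-type and 1028 in knockout skin. Without the 2 libraries highest in 18S RNA it was 1762 for imiquimod in Cre-negative skin. For the other comparisons and settings the count over all genes is not given here. Whether the 10 genes moved more than all genes cannot be told for those.

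Over all groups the replicate numbers gave no steady pairing. Of all 31 same-numbered pairs, those of knockout with Cre-negative DMSO skin included, 11 correlated above 0.1 and 7 below -0.1 (range -0.32 to 0.49). Knockout DMSO replicates 1 and 2 stood at 0.49 and 0.41 with wild-type imiquimod skin and at 0.32 and 0.12 with knockout imiquimod skin. They stood at -0.32 and -0.15 with Cre-negative imiquimod skin. In groups of 2 libraries the deviations mirror each other, so pairs between such groups are not independent. Of 14 libraries, 6 correlated best with their own number. The block ended the calls on Ovol1 in knockout against Cre-negative DMSO skin (adjusted p = 0.0651 by edgeR) and on Gata3 with imiquimod in knockout skin (0.0627). It reversed Grhl1 with imiquimod in Cre-negative skin (0.40), Notch1 with imiquimod in knockout skin (0.14), Klf4 in knockout against wild-type skin (0.035), and in Cre-negative against wild-type skin Hopx (-0.27), Zfp750 (-0.24) and Notch1 (-0.040).

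Library size alone moved the median of all genes by -0.35 and 0.39 in knockout against Cre-negative skin with DMSO and imiquimod, by -0.67, -0.57 and 0.16 for imiquimod in wild-type, Cre-negative and knockout skin, by 0.74 for the difference, and by -0.45 and -0.10 for knockout and Cre-negative against wild-type skin. In the first 7 of these, the share of called genes that rose was 25.9%, 83.1%, 13.2%, 14.6%, 88.5%, 87.7% and 20.0%, against 47.2%, 64.6%, 44.8%, 44.7%, 77.3%, 59.2% and 43.9% with TMM. It reversed Trp63 (-0.44), Hopx (-0.34) and Zfp750 (-0.40) with imiquimod in wild-type skin, Klf4 (-0.29), Zfp750 (-0.13) and Hes1 (-0.33) in Cre-negative skin, Notch1 (0.0043) in knockout skin, the Grhl1 difference (0.019), and Klf4 (-0.029), Zfp750 (-0.071) and Notch1 (-0.056) in Cre-negative against wild-type skin. The sex term reversed Klf4 (0.17) and Hopx (-0.10) in knockout against Cre-negative DMSO skin, Grhl1 with imiquimod in Cre-negative skin (0.056) and Klf4 in Cre-negative against wild-type skin (-0.28). Without the 2 libraries highest in 18S RNA, Zfp750 reversed in knockout against Cre-negative (0.42) and wild-type (0.45) DMSO skin, as did Notch1 in knockout against Cre-negative imiquimod skin (-0.038), Trp63 (0.018) and Grhl1 (0.20) with imiquimod in Cre-negative skin, Hopx in knockout skin (-0.038), and the Trp63 difference (-0.64).

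With 1 library left out at a time, the number of the 10 genes and of all genes past the threshold ran from 1 to 2 and 3123 to 4294 in knockout against Cre-negative DMSO skin, and from 0 to 3 and 796 to 2360 with imiquimod. The ranges for imiquimod were 1 to 3 and 1092 to 3531 in wild-type, 1 to 3 and 1272 to 2238 in Cre-negative, and 0 to 2 and 339 to 1729 in knockout skin. They were 1 to 3 and 1174 to 3733 for the difference, 1 to 2 and 2054 to 3687 for knockout against wild-type skin, and 0 to 188 of all genes for Cre-negative against wild-type skin. Signs turned for Zfp750 (-0.41 to 0.37) in knockout against Cre-negative DMSO skin and Hopx (-2.72 to 0.0097) with imiquimod. With imiquimod they turned for Grhl1 (-1.52 to 0.051), Hopx (-0.17 to 0.82) and Zfp750 (-0.36 to 0.64) in wild-type skin, and for Klf4 (-0.40 to 0.69), Grhl1 (-0.34 to 0.14), Zfp750 (-0.46 to 0.94) and Hes1 (-0.033 to 0.48) in Cre-negative skin. In knockout skin they turned for Grhl3 (-0.85 to 0.12), Hopx (-1.64 to 1.06) and Notch1 (-0.41 to 0.18), and for the difference in Trp63 (-0.28 to 0.51) and Grhl1 (-2.18 to 0.041). Against wild-type skin they turned for Klf4 (-0.43 to 0.34) and Zfp750 (-0.39 to 0.39) in knockout skin. In Cre-negative skin they turned for Klf4 (-0.26 to 0.50), Ovol1 (-0.11 to 0.15), Gata3 (-0.30 to 0.050), Hopx (-0.54 to 0.70), Zfp750 (-0.093 to 0.22), Notch1 (-0.25 to 0.56) and Hes1 (-0.67 to 0.071).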
